A study of Mus musculus with 6 samples.

Results

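DNA methylation was examined at 10 genes that mark myeloid cells, in CD8+ T cells, which are lymphoid. The genes were the transcription factor genes Spi1, Cebpa, Cebpb, and Cebpe, the granule and lysosome protein genes Mpo, Elane, and Lyz2, and the receptor and adhesion genes Csf1r, Csf3r, and Itgam. The CpGs used were those inside each gene and within 10 kb on either side (mm10, GENCODE M21) with 5 or more reads in all 6 libraries. There were 333 such CpGs, among 1192344 CpGs of the series with as many reads. Near the 10 genes, 1275 CpGs were listed in at least 1 library, so that most were left out for low depth. Of the 333 CpGs, 75 lay in a promoter (from 1000 bp before to 500 bp after the gene start), 116 in the rest of a gene body, 57 in an upstream flank, and 85 in a downstream flank.

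CD8+ T cells were enriched with magnetic beads from LNs of 13-week-old C57BL/6N mice, and DNA was measured by reduced representation bisulfite sequencing (RRBS), which reads fragments cut by MspI at CCGG and tells methylated from unmethylated cytosine. WT mice carried no transgene, and hSTAT5B mice (hSTAT5B +/T) carried human STAT5B. hSTAT5BN642H mice (hSTAT5B N642H +/T) carried human STAT5B with the N642H mutation, with which the factor stays phosphorylated longer after cytokine stimulation. The study reports that hSTAT5BN642H mice develop a CD8+ T cell lymphoma or leukemia, and it calls those used for expression diseased. Disease and genotype cannot be told apart here. Both transgenes were driven by the Vav1 promoter, which is active throughout blood cells, myeloid cells included, and each was studied in 1 selected mouse line. There were 2 libraries per genotype, with 43291086 to 67007186 reads on CpGs and a median of 5 to 11 reads per CpG. At the 333 CpGs the median depth was 16 to 35 reads per library. Whether the libraries of a genotype came from separate mice is not given in the sources used here, so that p-values measure only the spread between these libraries. Reads carried no molecular identifiers, and intervals for single CpGs cover counting error only.

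Spi1 encodes PU.1, and Cebpa, Cebpb, and Cebpe encode C/EBP factors. These proteins bind the control regions of myeloid genes and are needed for granulocytes and macrophages to form, while Spi1 is turned off as early thymocytes commit to the T cell line. Methylation of CpG-poor promoters and enhancers commonly goes with silence of a gene in a lineage, whereas CpG islands mostly stay unmethylated whether or not the gene is used. The level of a region is given here as the mean percent of methylated reads over its CpGs, each CpG weighted alike. Where a CpG of a gene is given as having the largest difference, that is between the means of hSTAT5BN642H and WT and among the CpGs of the gene with 10 or more reads in all 6 libraries.

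Sequence and read depth both limit what RRBS can see at these genes. Below are the bases that precede the gene start in the RefSeq promoter windows (GRCm38.p6) of 3 genes with many, few, and almost no CpGs, and the stretches that hold the Mpo CpG and the Itgam CpGs described further on. Capitals mark the CpGs with 5 or more reads in all 6 libraries, and the bases are written 5′ to 3′ on the strand of the gene.
Cebpb, chr2:167688665-167688914, plus strand: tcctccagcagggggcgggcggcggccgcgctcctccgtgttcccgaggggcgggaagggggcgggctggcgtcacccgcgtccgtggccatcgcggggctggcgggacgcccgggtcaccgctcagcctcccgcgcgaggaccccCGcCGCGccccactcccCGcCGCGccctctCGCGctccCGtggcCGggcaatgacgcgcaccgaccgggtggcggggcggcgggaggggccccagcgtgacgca
Csf3r, chr4:126024409-126024549, plus strand: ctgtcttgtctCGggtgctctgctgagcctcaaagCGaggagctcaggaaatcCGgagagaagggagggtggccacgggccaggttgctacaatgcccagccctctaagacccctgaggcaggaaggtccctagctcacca
Lyz2, chr10:117282322-117282522, minus strand: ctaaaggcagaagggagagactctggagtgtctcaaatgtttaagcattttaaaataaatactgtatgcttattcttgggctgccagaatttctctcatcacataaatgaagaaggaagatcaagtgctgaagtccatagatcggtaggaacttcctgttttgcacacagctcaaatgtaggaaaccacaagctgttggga
Mpo promoter, chr11:87793311-87793350, plus strand: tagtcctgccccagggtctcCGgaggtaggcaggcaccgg
Itgam coding sequence, chr7:128080257-128080401, plus strand: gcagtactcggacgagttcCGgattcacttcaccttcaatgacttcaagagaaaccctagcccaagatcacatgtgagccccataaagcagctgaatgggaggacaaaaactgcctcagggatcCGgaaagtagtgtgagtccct
The Cebpb stretch has 41 CpGs in 250 bases, and 10 of them were measured. The Csf3r stretch has 4 CpGs in 141 bases, of which 3 were measured, and the Lyz2 stretch has 1 CpG in 201 bases, which was not. Matching promoter windows were found for 7 of the 10 genes (Cebpa, Cebpb, Mpo, Elane, Csf3r, Itgam, and Lyz2). The site CCGG, on which the method rests, was in 52.8% of all 32851 RefSeq windows of 300 bases. It occurred in the windows of Cebpb (3 times), Cebpa (2 times), Csf3r, Itgam, and Elane (1 time each), and not in those of Lyz2 and Mpo. The letters GAGGAA, the core that PU.1 binds, were searched on both strands and were in 28.3% of all windows. They matched 3 times in Itgam, 2 times in Mpo, and 1 time each in Csf3r and Elane. The letters TTGCNNAA, after the sites of C/EBP factors, were in 10.8% of all windows and matched 0 times in the 7.

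Promoters split by CpG content. The ratio of observed to expected CpGs over the promoter was 0.85 in Cebpa and 0.84 in Cebpb, and between 0.097 in Lyz2 and 0.34 in Csf3r for the other 8 genes. Of the 10 promoters, 5 had at least 3 CpGs with enough reads, and Spi1, Elane, Csf1r, Itgam, and Lyz2 had none. The methylation of those 5 promoters was therefore not measured at this depth. Among all 333 CpGs, the mean WT level was under 20% at 133, between 20% and 80% at 33, and 80% or more at 167. Of the 75 promoter CpGs, 67 were under 20%, while 78 of the 85 CpGs of downstream flanks were at 80% or more.

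**Figure D1:**
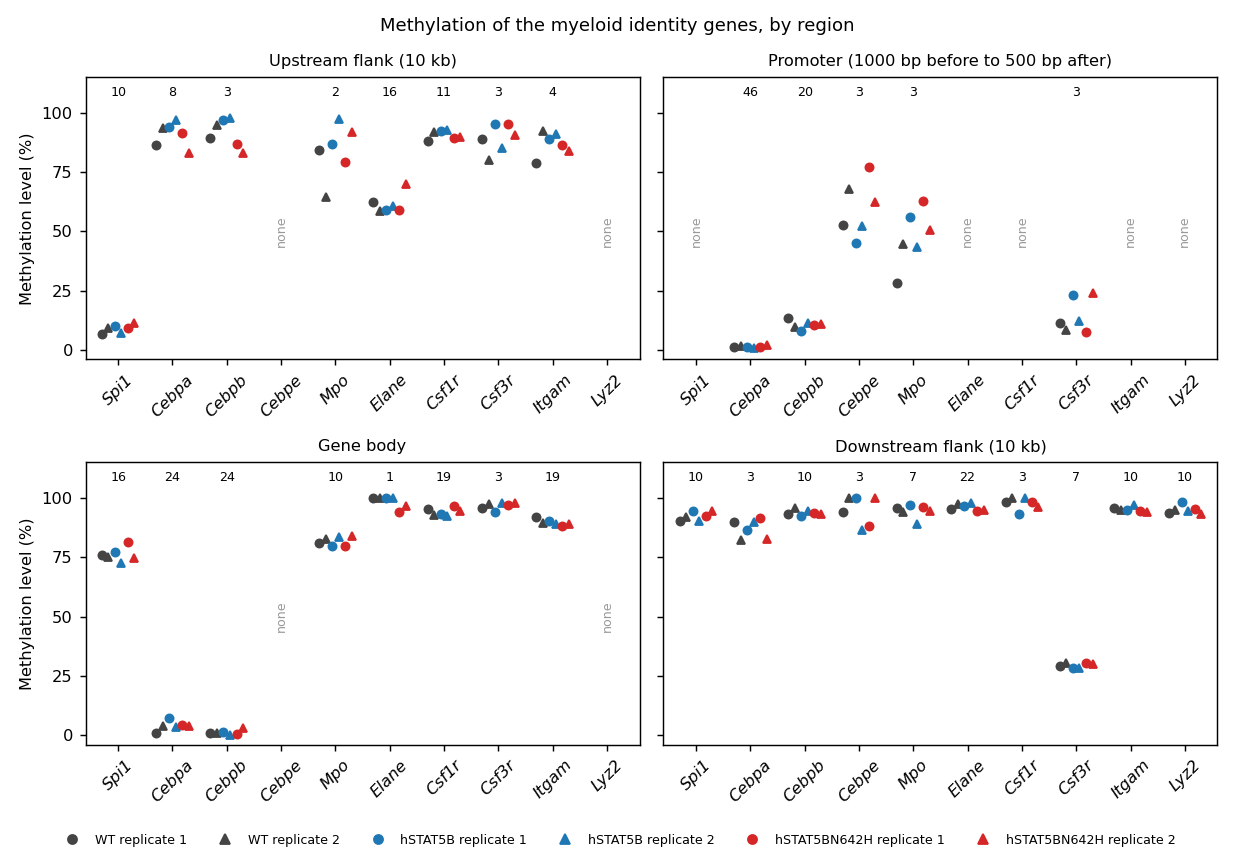
Mean methylation level in percent (y axis) of the upstream flank, promoter, gene body, and downstream flank of the 10 genes (x axis) in each of the 6 libraries, shown as points with the number of CpGs above them. The Cebpa promoter and the Cebpa and Cebpb gene bodies sit near 0, and the Cebpb promoter lies at 7.98% to 13.7%. Most other gene bodies and flanks lie above 70%, and the Cebpe and Mpo promoters lie between these and the low levels.

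Cebpa, the factor gene that directs progenitors into the granulocyte and monocyte line, was nearly unmethylated on either side of its start. Between 340 bp before and 105 bp after the start, no CpG had enough reads, so that the start itself was not measured. Its promoter (chr7:35118293-35119793) had 46 CpGs and a level of 1.16% and 1.74% in the WT libraries, 1.46% and 0.908% in hSTAT5B, and 1.37% and 1.99% in hSTAT5BN642H. These 6 values overlap between the genotypes. The rest of the gene was at 2.45% ± 1.87 (SD, n = 2) in WT, 5.22% ± 2.75 in hSTAT5B, and 3.96% ± 0.238 in hSTAT5BN642H over 24 CpGs. The CpG with the largest difference between hSTAT5BN642H and WT lay 917 bp after the start, in the coding sequence. It was at 41.7% in hSTAT5B replicate 1 and hSTAT5BN642H replicate 2, on 5 of 12 reads in both, and at 0% in the other 4 libraries. The CpG nearest the start, 105 bp after it, was at 26.7% in WT replicate 2, on 15 reads, and at 0% in the other 5 libraries. An antisense gene, Gm45091, overlaps the promoter. Upstream, from 6418 to 2255 bp before the start, the level was 83.0% to 97.0% over 8 CpGs.

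Cebpb, an inducible C/EBP gene, had a similar outline. The promoter (chr2:167687915-167689415) was at 13.7% and 9.57% in WT, 7.98% and 11.2% in hSTAT5B, and 10.6% and 11.1% in hSTAT5BN642H, over 20 CpGs. Its WT mean of 11.6% was above that of 81.8% of the 12658 promoters with 3 or more CpGs. The 17 CpGs from 362 bp before to 74 bp after the start were at 2.08% to 6.17% in the 6 libraries. They include those in capitals above. The 3 CpGs from 990 to 479 bp before the start averaged 40.3% to 57.1%, but were unlike each other. The one at 990 bp was at 95.5% to 100%, and those at 488 and 479 bp were at 0% to 68.4%. The gene body was at 0.896% ± 0.228 in WT, which was lower than all but 0.532% of the 15424 gene bodies with 3 or more CpGs. Tmem189, on the other strand, starts inside Cebpb and covers its promoter. The CpG nearest the start, 60 bp before it, was at 0% to 20% on 5 to 29 reads, and the largest difference between hSTAT5BN642H and WT lay 3505 bp after the start, with 96.0% and 76.5% in WT, 67.9% and 93.3% in hSTAT5B, and 65.0% and 69.6% in hSTAT5BN642H. In the downstream flank the level was 92.2% to 95.9%.

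Spi1 had no promoter CpG with enough reads, and its nearest measured CpG lay 3213 bp before the gene start, at 48.6% to 78.6%. Between 3584 and 3545 bp before the start (chr2:91078806-91078845), 8 CpGs formed an unmethylated cluster, at 1.14% and 0.658% in WT, 1.66% and 0% in hSTAT5B, and 0.391% and 0% in hSTAT5BN642H. The upstream flank as a whole was at 8.08% ± 1.89 in WT, and 7.84% of the 10762 upstream flanks with 3 or more CpGs had a lower WT level. A second partly methylated stretch lay inside the gene, around the transcript start at position 91096780. Its 5 CpGs (chr2:91096655-91097195) were at 42.2% and 42.5% in WT, 48.6% and 37.0% in hSTAT5B, and 60.7% and 46.8% in hSTAT5BN642H, so that hSTAT5B overlapped both other genotypes. The 8 CpGs after it were at 84.2% to 89.0%. Among CpGs with 10 or more reads in all libraries, the largest difference between hSTAT5BN642H and WT was in the 3′ UTR, 33069 bp after the start, with 84.6% and 86.2% in WT, 81.0% and 47.4% in hSTAT5B, and 60% and 64.0% in hSTAT5BN642H.

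Cebpe, which acts late in granulocyte formation, had 6 CpGs in all and the most methylated promoter of the 5 in WT and hSTAT5BN642H. The 3 promoter CpGs were at 52.6% and 67.8% in WT, 45.2% and 52.3% in hSTAT5B, and 77.2% and 62.4% in hSTAT5BN642H. The WT libraries lay between the hSTAT5B and the hSTAT5BN642H values and overlapped the latter. In WT, 81.5% of the 5007 CpG-poor promoters (ratio under 0.6) had a lower level. The CpG 47 bp before the start, read 93 to 144 times, was at 47.7% and 70.0% in WT, 52.4% and 50.5% in hSTAT5B, and 61.1% and 68.1% in hSTAT5BN642H. The WT libraries differed there by more than counting error, since their Wilson 95% intervals were 38.6% to 57.0% in replicate 1 and 60.4% to 78.1% in replicate 2. A CpG 370 bp before the start, with the largest difference between hSTAT5BN642H and WT, was at 70.6% in hSTAT5BN642H replicate 1 and at 23.1% to 35.7% in the other 5 libraries, on 10 to 17 reads.

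**Figure D2:**
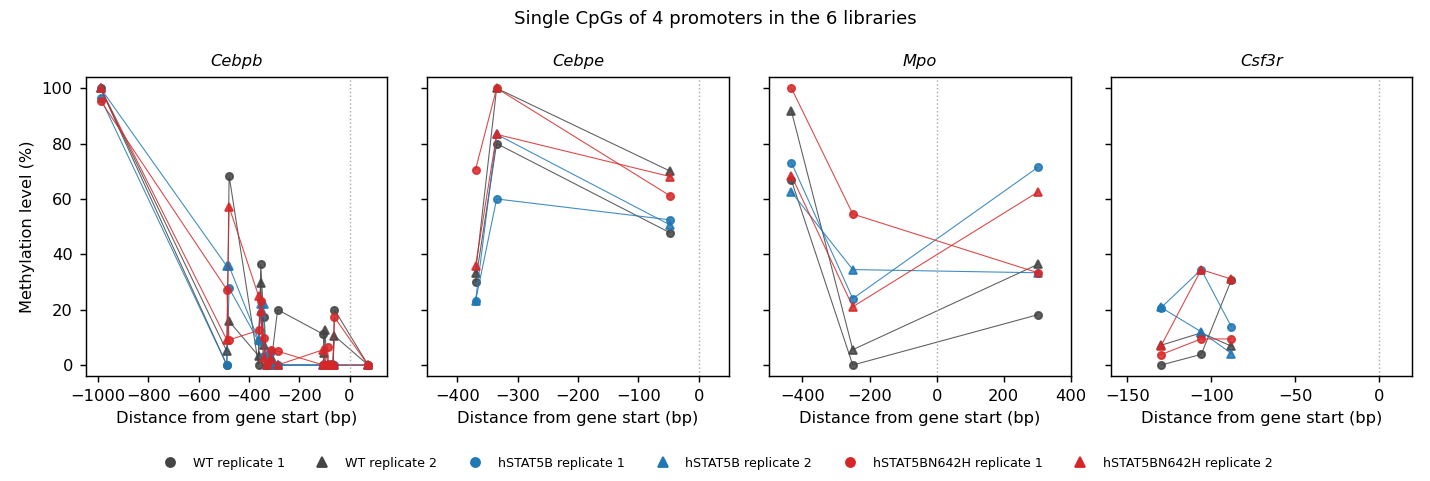
Methylation level in percent (y axis) of single promoter CpGs of Cebpb, Cebpe, Mpo, and Csf3r by distance from the gene start in bp (x axis, a different range in each panel), with thin lines joining the CpGs of 1 library. Levels of Cebpb are highest at the CpG farthest from the start and mostly near 0 close to it, those of Csf3r stay under 35%, and the libraries of a genotype often lie far apart in Cebpe and Mpo.

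Mpo encodes myeloperoxidase, the main enzyme of neutrophil azurophil granules. Its promoter (chr11:87792581-87794081) had 3 CpGs and was at 28.3% and 44.5% in WT, 56.2% and 43.4% in hSTAT5B, and 62.6% and 50.7% in hSTAT5BN642H. Both hSTAT5BN642H libraries were above both WT libraries, and hSTAT5B overlapped both. The means were 36.4% ± 11.5 in WT and 56.6% ± 8.46 in hSTAT5BN642H, and the difference of 20.2 points did not pass the test (limma adjusted p = 0.875, unadjusted p = 0.0664). It was 12.1 to 28.4 points with 1 library of either genotype left out, and 8.08 points with the promoter set at every annotated transcript start. The CpG 250 bp before the start, in capitals above, was the nearest to the start and had the largest difference of the gene. It was at 0% and 5.56% in WT, 24.0% and 34.5% in hSTAT5B, and 54.5% and 21.1% in hSTAT5BN642H, on 11 to 36 reads. All 4 transgenic libraries were above both WT libraries there (limma unadjusted p = 0.00192 for hSTAT5BN642H and 0.00579 for hSTAT5B, adjusted p = 0.728 and 1). The count of 0 in WT replicate 1 allows a share of up to 18.8%, and 6 of 11 reads in hSTAT5BN642H replicate 1 gave a Wilson 95% interval of 28.0% to 78.7%.

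Inside Mpo, the level was 81.8% ± 1.24 in WT, 81.5% ± 2.72 in hSTAT5B, and 81.9% ± 2.83 in hSTAT5BN642H over 10 CpGs. Within that mean, 3 intronic CpGs between 6586 and 6758 bp after the start were at 33.9% to 50.5%, and the 6 CpGs after them at 97.3% to 100%. The antisense gene Gm11505 covers these 3 CpGs.

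Elane, the gene of neutrophil elastase, had 1 CpG in its body, in the coding sequence 743 bp after the start, at 100% in the WT and hSTAT5B libraries and at 93.9% and 96.8% in hSTAT5BN642H. Its upstream flank was at 62.5% and 58.7% in WT, 59.0% and 60.7% in hSTAT5B, and 59.1% and 70.0% in hSTAT5BN642H over 16 CpGs. Part of that flank lies in the neighbouring gene Prtn3, which encodes proteinase 3 of the same granules, and the 13 CpGs there were at 63.6% to 76.2%. The 6 farthest from Elane, 4496 to 4306 bp before its start, were at 40.6% to 61.0%, the next CpG at 0% to 25% on few reads, and the last 6 at 92.7% to 100%. One of the farthest 6, 4306 bp before the start, had the largest difference between hSTAT5BN642H and WT, with 36.7% and 26.3% in WT, 28.6% and 41.7% in hSTAT5B, and 42.0% and 78.1% in hSTAT5BN642H. The downstream flank, with 22 CpGs, was at 94.4% to 97.7%. Lyz2, the lysozyme gene of macrophages and neutrophils, had no CpG with enough reads in its promoter, body, or upstream flank. Its 10 downstream CpGs were at 93.6% and 95.1% in WT, 98.1% and 94.5% in hSTAT5B, and 95.2% and 93.3% in hSTAT5BN642H. The nearest of them to the start, at 6136 bp, was at 81.8% to 100%. The largest difference lay at 6793 bp, with 88.5% and 83.3% in WT, 100% and 84.6% in hSTAT5B, and 97.7% and 100% in hSTAT5BN642H.

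Csf3r encodes the receptor for G-CSF, the growth factor of neutrophils, and its 3 measured promoter CpGs stood low in a gene that was otherwise methylated. The promoter was at 11.5% and 8.53% in WT, 23.0% and 12.3% in hSTAT5B, and 7.55% and 24.1% in hSTAT5BN642H. Both hSTAT5B libraries were above both WT libraries, and the hSTAT5BN642H libraries spanned all other values. The 3 CpGs lie 130, 106, and 88 bp before the start, in capitals above. The one at 106 bp, with the largest difference between hSTAT5BN642H and WT, was at 3.85% and 11.6% in WT, 34.5% and 12% in hSTAT5B, and 9.43% and 34.5% in hSTAT5BN642H. The nearest, at 88 bp, was at 30.8% and 6.82% in WT, 13.8% and 4.17% in hSTAT5B, and 9.43% and 31.0% in hSTAT5BN642H. By contrast the gene body, over 3 intronic CpGs, was at 94.0% to 97.8%, and the upstream flank at 79.9% to 95.4%. Among CpG-poor promoters, 61.0% had a lower WT level than Csf3r, whose mean was 10.03% ± 2.13. In the downstream flank, 5 CpGs at the start of the neighbouring gene Mrps15 were at 0.69% to 5.76%, and 2 CpGs before them at 84.8% to 100%.

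**Figure D3:**
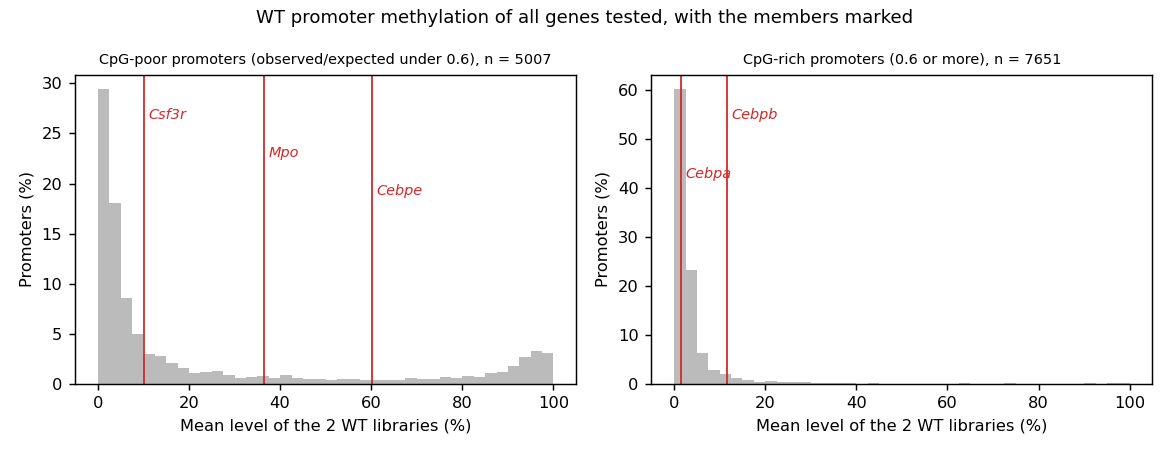
Histograms of the mean WT promoter level in percent (x axis) for all promoters with 3 or more CpGs, as percent of promoters (y axis), for 5007 CpG-poor and 7651 CpG-rich promoters, with the 5 measured myeloid promoters as red lines. Csf3r lies beside the low peak, and Mpo and Cebpe lie between the low and the high end. Among CpG-rich promoters Cebpa lies at the low peak, and Cebpb, at 11.6%, lies above their upper quartile of 3.60%.

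Csf1r encodes the receptor for M-CSF, the growth factor of macrophages. Its body (chr18:61101099-61132149) was at 95.1% and 93.0% in WT, 93.1% and 92.2% in hSTAT5B, and 96.4% and 94.6% in hSTAT5BN642H over 19 CpGs, and its upstream flank at 88.2% to 92.6%. The body was thus close to fully methylated in all 6 libraries. Among CpGs with 10 or more reads, the largest difference between hSTAT5BN642H and WT lay 19964 bp after the start, with 90% and 73.3% in WT, 91.7% and 87.5% in hSTAT5B, and 100% in both hSTAT5BN642H libraries. The CpG nearest the start, 2425 bp after it in an intron, was at 60% to 100% on 5 to 19 reads. A single intronic CpG, 8087 bp after the start, stood out from this, at 63.6% and 46.7% in WT, 42.9% and 71.4% in hSTAT5B, and 85% and 85.7% in hSTAT5BN642H, on 7 to 20 reads. This CpG was chosen after its values were seen.

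Itgam encodes CD11b, the integrin chain found on neutrophils, macrophages, and some activated CD8+ T cells. Its body was at 91.7% and 89.3% in WT, 90.1% and 89.1% in hSTAT5B, and 88.2% and 89.0% in hSTAT5BN642H over 19 CpGs. Without 2 CpGs of the coding sequence, 17636 and 17741 bp after the start, the level was 93.0% to 96.8%. Those 2 CpGs, which stand in capitals in the Itgam stretch above, were partly methylated. The first was at 42.4% and 60.4% in WT, 61.8% and 46.3% in hSTAT5B, and 28.8% and 35.4% in hSTAT5BN642H, on 33 to 68 reads. The second, which had the largest difference of the gene, was at 55.9% and 56.3% in WT, 55.6% and 48.4% in hSTAT5B, and 29.6% and 28.0% in hSTAT5BN642H, on 25 to 54 reads. Both hSTAT5BN642H libraries lay below the other 4 libraries at both CpGs. WT and hSTAT5B overlapped at the first, and at the second both hSTAT5B libraries were below both WT libraries. At the second CpG hSTAT5BN642H was 27.3 points below WT (limma unadjusted p = 0.0417, adjusted p = 0.785) and 23.2 points below hSTAT5B (unadjusted p = 0.075, adjusted p = 0.809). Another CpG of the coding sequence, 18996 bp after the start, was at 97.8% and 100% in WT, 92.6% and 93.9% in hSTAT5B, and 84.4% and 79.1% in hSTAT5BN642H, where the genotypes did not overlap (limma unadjusted p = 0.00137 for hSTAT5BN642H against WT, adjusted p = 0.728). The CpGs at 17636 and 18996 bp were chosen after their values were seen. The nearest measured CpG to the start, 1998 bp before it, was at 45.5% in WT replicate 1, on 11 reads, and at 90% to 100% in the other 5 libraries. The gene model Gm49368 overlaps Itgam, so that these CpGs belong to both.

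**Figure D4:**
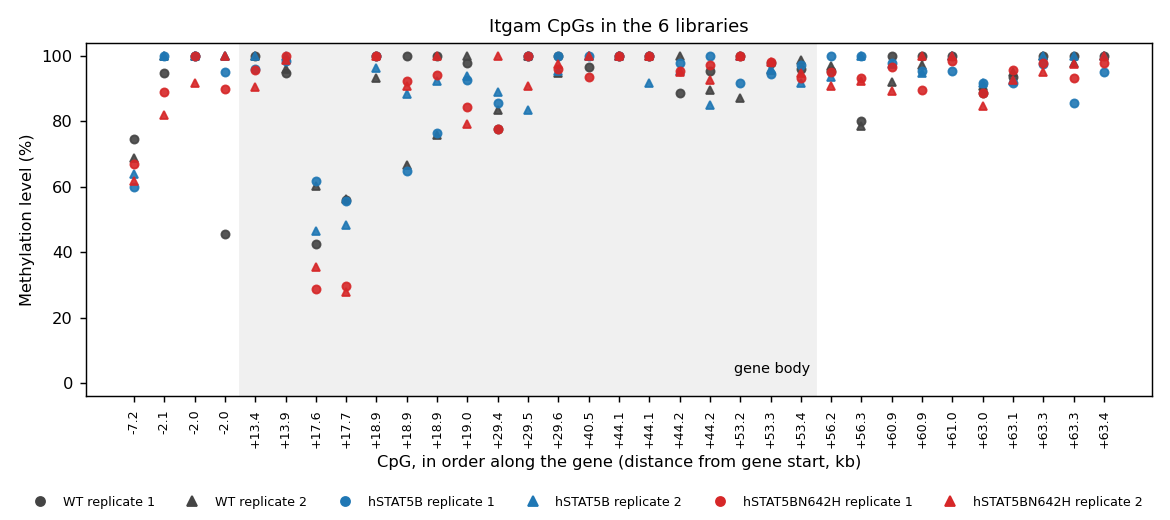
Methylation level in percent (y axis) of the 33 Itgam CpGs in order along the gene, with the distance from the gene start in kb (x axis), in the 6 libraries; the gene body is shaded. Most CpGs lie above 75%, and the CpGs at +17.6 and +17.7 kb lie between 28.0% and 61.8%, with both hSTAT5BN642H libraries lowest.

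For the tests, 1 was added to the methylated and to the unmethylated reads and the log2 ratio of both was fitted with limma, the 6 libraries sharing 1 estimate of the spread, and p-values were adjusted by Benjamini-Hochberg over every region or CpG tested in the genome. At the 333 CpGs, 0 had an adjusted p under 0.05 in any of the 3 comparisons, and the share called over all 1192344 CpGs was 0% as well. Unadjusted p-values under 0.05 were found at 19 of the 333 CpGs for hSTAT5BN642H against WT (5.71%, beside 6.28% of all CpGs), at 16 for hSTAT5B against WT (4.8%, beside 4.85%), and at 19 for hSTAT5BN642H against hSTAT5B (5.71%, beside 6.27%). In these shares the members were thus close to the genome as a whole. Both hSTAT5BN642H libraries were above both WT libraries at 28 CpGs (8.41%, beside 8.89% of all CpGs) and below them at 34 (10.2%, beside 12.6%). For hSTAT5B against WT the counts were 27 above (8.11%, beside 9.41%) and 22 below (6.61%, beside 8.24%). For hSTAT5BN642H against hSTAT5B they were 30 above (9.01%, beside 8.2%) and 35 below (10.5%, beside 13.2%). The median difference was 0 points over the 333 CpGs and over all CpGs in each comparison, and 290 of the 333 CpGs (87.1%) differed by under 10 points between hSTAT5BN642H and WT, as did 85.5% of all CpGs. Of the 333, 11 were at least 20 points higher and 2 at least 20 points lower in hSTAT5BN642H (3.30% and 0.601%, beside 1.64% and 1.99% of all CpGs).

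**Figure D5:**
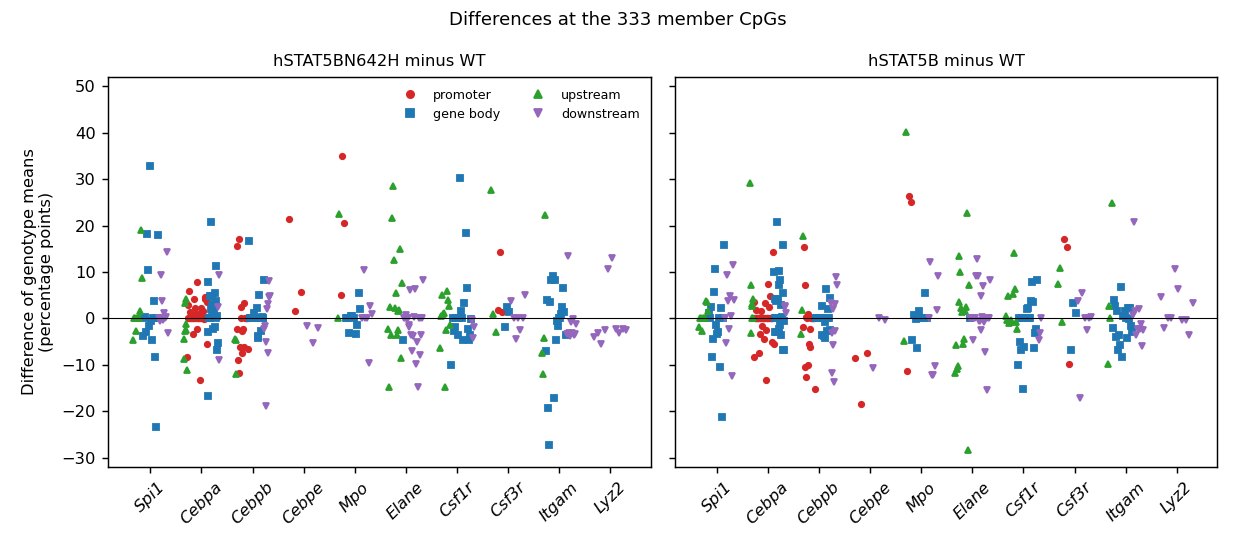
Difference of genotype means in percentage points (y axis) at each of the 333 CpGs, in order along each of the 10 genes (x axis), for hSTAT5BN642H minus WT and hSTAT5B minus WT, which share the WT libraries; symbols give the region. Most points lie within 10 points of 0, and the largest positive difference on the left is the Mpo CpG at 35.0 points.

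By region, limma gave 0 calls among the 5 promoters, 7 gene bodies, 7 upstream flanks, and 10 downstream flanks with 3 or more CpGs, and 0% of all genes' regions were called in every comparison. For promoters, an unadjusted p under 0.05 was found at 0 of 5 in each comparison (beside 5.62%, 6%, and 5.37% of 12658 promoters for hSTAT5BN642H against WT, hSTAT5B against WT, and hSTAT5BN642H against hSTAT5B). For gene bodies, such p-values were found at 0, 2, and 1 of 7 (beside 8.07%, 6.01%, and 8.16%), for Cebpa and Csf1r in the second comparison and for Csf1r in the third. In upstream flanks they were found at 0, 0, and 1 of 7 (beside 7.27%, 6%, and 7.49%), the last being Cebpb, and in downstream flanks at 0, 0, and 1 of 10 (beside 7.52%, 5.94%, and 7.22%), the last being Elane. For hSTAT5BN642H against WT, the mean was higher at 4 and lower at 1 of the 5 promoters (54.6% of all promoters were higher). It was higher at 6 and lower at 1 of the 7 gene bodies (41.6% of all gene bodies were higher). The largest difference between promoters was in Cebpe, where hSTAT5BN642H was 21.0 points above hSTAT5B, with no overlap (limma adjusted p = 0.875, unadjusted p = 0.109).

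Fisher's exact test on reads summed over the 2 libraries of a genotype, which leaves out the spread between libraries, gave some calls. Of the 333 CpGs it called 1, 1, and 2 in the 3 comparisons in the order above (beside 0.855%, 0.193%, and 0.668% of all CpGs). These were, by Fisher's exact test, the Itgam CpG at 18996 bp for hSTAT5BN642H against WT (16.6 points lower, adjusted p = 0.0147), a CpG 3003 bp before Elane for hSTAT5B against WT (adjusted p = 0.00111), and the Itgam CpG at 17636 bp (adjusted p = 0.0406) and a CpG 1016 bp before Cebpb (adjusted p = 0.0490) for hSTAT5BN642H against hSTAT5B. The Elane CpG was at 88.9% and 81.0% in WT, 44.0% and 69.2% in hSTAT5B, and 79.6% and 73.2% in hSTAT5BN642H, so that the hSTAT5B libraries were below both WT libraries but also far from each other. The Elane and Cebpb CpGs were chosen after their values were seen. Among promoters Fisher's exact test called Mpo for hSTAT5BN642H against WT (adjusted p = 0.0317) and Cebpe for hSTAT5BN642H against hSTAT5B (adjusted p = 0.00622), that is 1, 0, and 1 of 5 (beside 8.63%, 5.15%, and 8% of promoters). It called 1, 1, and 1 of 7 gene bodies (Itgam, Cebpa, and Mpo, beside 28.2%, 17%, and 29.4%). In upstream flanks it called 1, 0, and 1 of 7 (Elane and Cebpb, beside 14.4%, 7.89%, and 14.8%), and in downstream flanks 1, 0, and 2 of 10 (Elane, then Elane and Lyz2, beside 18.1%, 9.72%, and 16.5%). For the Elane upstream flank the difference in summed reads, hSTAT5BN642H minus WT, was -5.96 points, whereas that of the means over CpGs was 4.02 points, the opposite direction.

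Further myeloid genes were looked at in 3 lists. Of 7 myeloid transcription factor genes, 4 had a measured promoter, and the WT levels went from 1.65% ± 0.947 in Cebpd to 3.72% ± 0.37 in Irf8. Of 16 granule and neutrophil genes, 2 had a measured promoter, Mmp9 at 16.3% ± 2.31 and Prtn3 at 1.21% ± 1.05, and 9 had a measured body, the lowest being Mmp9 at 58.4% ± 1.01. Of 21 receptor and adaptor genes, 9 had a measured promoter, from 2.38% ± 3.37 in Itgb2, the partner chain of CD11b that T cells also carry, to 96.6% ± 2.5 in Adgre1, the macrophage marker F4/80. Their bodies went from 1.04% ± 1.47 in Cd14 to 98.8% ± 0.0494 in Itgax. In these 3 lists 0 promoters and 0 bodies had a limma adjusted p under 0.05 in any comparison. For hSTAT5BN642H against WT, an unadjusted p under 0.05 was found at 2 of 9 promoters and 3 of 16 bodies of the receptor and adaptor genes (beside 5.62% of all promoters and 8.07% of all bodies), and at 0 regions of the other 2 lists.

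The cell type of the libraries was looked at through T and B cell genes. Promoter CpGs of Cd8b1, which encodes a chain of CD8, were at 37.8% in both WT libraries, 18.8% and 17.5% in hSTAT5B, and 8.51% and 11.8% in hSTAT5BN642H (limma unadjusted p = 0.000929 for hSTAT5BN642H against WT, adjusted p = 0.802). The body of Cd8a was at 49.4% and 17.0% in WT, 18.0% and 25.2% in hSTAT5B, and 10.1% and 5.63% in hSTAT5BN642H, so that WT replicate 1 stood apart. WT levels in the T cell list went from 3.51% ± 1.15 in the Bcl11b promoter to 98.3% ± 0.601 in the Lat promoter. The highest body was Cd28 at 90.5% ± 0.339. All 7 measured promoters had a lower mean in hSTAT5BN642H than in WT, as did 45.1% of the 12658 promoters. For this comparison 4 of the 7 had a limma unadjusted p under 0.05 (beside 5.62% of all promoters), and 0 had an adjusted p under 0.05. The largest difference was at the Zap70 promoter, with 36.5% ± 10.2 in WT and 6.04% ± 5.6 in hSTAT5BN642H (limma unadjusted p = 0.00863, adjusted p = 0.875). The body of Cd4 was at 89.3% to 96.1% in the 6 libraries. In the B cell list 7 of 9 bodies were measured, from 12.5% ± 0.516 in Cd79b to 86.5% ± 3.86 in Blnk, and the 1 measured promoter, Ebf1, was at 1.93% ± 1.16. Differences in the share of CD8+ T cells between libraries, and their part in the levels of the myeloid genes, were not tested. WT replicate 1 was the lowest library at the Mpo promoter and the highest at the Cebpb promoter. At the Cebpa, Cebpe, and Csf3r promoters it was neither the lowest nor the highest.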

How the data were processed

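DNA methylation of LN CD8+ T cells was measured by RRBS in 6 libraries, 2 per genotype. Per the labels and the study's methods, the authors trimmed reads with Trimmomatic, aligned them to mm10 with BSMAP in RRBS mode, and called CpGs with their own scripts; versions are not given in the sources used here. The deposited files list each CpG with its methylated and total read counts, and a score that the authors set to 1000 times the methylated share, against which the counts were checked. Levels, tests, and figures were computed here from the read counts of CpGs with 5 or more reads in all 6 libraries, placed on GENCODE M21 protein-coding genes. Regions needed 3 or more CpGs for a test. limma 3.58.1 (R 4.3.3) was run on log2 ratios with an offset of 1, tested on simulated data first, with a two-sided threshold of 0.05 on the Benjamini-Hochberg adjusted p; Fisher's exact test, the other alternatives, and figures used Python 3.11.15, scipy 1.17.1, and matplotlib 3.10.9. Promoter sequences are from RefSeq (GRCm38.p6).

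Named were all 10 genes, in each the CpG nearest the start and the one with the largest difference of means between hSTAT5BN642H and WT among CpGs with 10 or more reads in all libraries, and from each gene list the promoter and gene body with the highest and lowest WT level; other genes and CpGs were added after their values were seen. A few genes that this rule names are not reported here. The genes and lists were chosen with earlier results of these data known. Replicates of a genotype differed by more than sampling noise (mean chi-square per CpG 2.00 to 2.15, where noise alone gives 1), so none was counted as a duplicate. Depth per library is given with the study's description.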

Additional observations from a re-analysis of the deposited data

How the results depend on the processing

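For the counts of myeloid regions and CpGs called, 168 of 180 settings gave 0, including all 165 other than Fisher's exact test (smallest limma adjusted p = 0.573), which covered other read minimums, CpG minimums, offsets, promoter windows, fits of only the genotypes compared, and leaving out each library (0 to 0). In the fit with the replicate number as a term (replicate block), 0 regions and 0 CpGs were called, and the numbers did not pair the libraries (correlations of -0.0026, -0.00023, and 0.00043 between the replicate differences of the genotypes over 757305 CpGs). Fisher's exact test on summed reads called 1 promoter, 1 gene body, 1 upstream flank, 1 downstream flank, and 1 CpG for hSTAT5BN642H against WT, 1 gene body and 1 CpG for hSTAT5B against WT, and 1 promoter, 1 gene body, 1 upstream flank, 2 downstream flanks, and 2 CpGs for hSTAT5BN642H against hSTAT5B, and leaves out the spread between libraries by construction. The share of member CpGs lower in both hSTAT5BN642H than in both hSTAT5B libraries was 10.5%, beside 13.2% of all CpGs. It was 6.43% among member CpGs with 1 or more reads, a minimum chosen after seeing the data. The share of all CpGs at that minimum is not given here, so that this drop cannot be read as particular to these genes. Of differences of 10 points or more, 2 of 7 changed sign with 10 or more reads, and 0 did with 1 or more reads, pooled reads, other promoter windows, or any library left out. Of all 93 differences of member regions, 18 changed sign with 10 or more reads, 27 with 1 or more reads, and 16 with pooled reads. With 1 library left out, 71 of 372 did. The Mpo promoter difference of 20.2 points was 8.08 with the windows of every transcript start. Transcript starts 8957 and 9536 bp after the gene start lie among 6 gene body CpGs at 97.3% to 100%. Their part in the smaller difference was not tested. With 2 libraries per genotype and a median of 16 to 35 reads per library at the 333 CpGs, small differences at single CpGs were not detectable. Large ones were not called either. The Mpo CpG with a difference of 35.0 points had a limma adjusted p = 0.728. Over all 1192344 CpGs the smallest for hSTAT5BN642H against WT was 0.664. Counts of 0 therefore do not show that levels were alike, and 5 of 10 promoters, set at the gene start, had no CpG with enough reads. Differences with other promoter windows were computed only for the other 5.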
